A study of Mus musculus with 6 samples.

Results

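The natriuretic peptide genes Nppa and Nppb, the stretch-responsive gene Ankrd1, the skeletal actin gene Acta1, the Xin repeat genes Xirp1 and Xirp2 and the muscle LIM protein gene Csrp3 were followed in hearts of newborn mice. These 7 genes were taken by symbol from a table of 56748 genes, and all 7 were found and passed the filter on low values. Expression was measured by RNA sequencing of heart samples at postnatal day 1 in 6 libraries. The cKO group held 3 heart samples of mice labelled as a cardiac-specific knockout of Kdm5b, a demethylase of lysine 4 of histone H3. The FF group held 3 heart samples of control mice, titled Flox and given as Kdm5b FF, and the labels do not say whether they carried a Cre transgene. For the driver of the knockout, the part of Kdm5b removed, the sex and the strain the labels hold no entry. The labels number the samples and do not say that each came from a separate animal, so a p-value here reflects only how these samples vary, which may be technical.

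Nppa and Nppb encode the prohormones of atrial and B-type natriuretic peptide, which heart muscle releases under wall stretch and which lower blood volume and pressure through guanylyl cyclase receptors. In the embryo both are made in atria and ventricles. After birth the ventricles lose most Nppa, and its return there is a standard sign of load. Ankrd1 (CARP) sits on titin at the I band and also enters the nucleus, Csrp3 (MLP) is a Z-disc LIM protein needed for normal heart muscle structure in mice, Xirp1 and Xirp2 bind actin at the intercalated disc, and Acta1 is the sarcomeric actin that early and loaded heart muscle shows beside the cardiac form Actc1.

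Promoters are shown for the 4 members that had the largest differences between the groups. They were read from RefSeq on GRCm38.p6, from 250 bases before to 50 bases after the annotated start, and written 5′ to 3′ along the gene's strand. Of the 7 members 6 matched the table, and Xirp1 is named only. Capitals mark matches to 7 motifs searched by their letters: GATA (the letters AGATAA and the letters AGATAG, and both with T as the first letter), MCAT of the TEAD factors (CATTCC), NKX2-5 (TNAAGTG), AP-1 (TGANTCA), the CArG box of SRF, the MEF2 site, all on both strands, and the TATA box (the letters TATAAA and the letters TATATA) on the gene's strand.
Nppa: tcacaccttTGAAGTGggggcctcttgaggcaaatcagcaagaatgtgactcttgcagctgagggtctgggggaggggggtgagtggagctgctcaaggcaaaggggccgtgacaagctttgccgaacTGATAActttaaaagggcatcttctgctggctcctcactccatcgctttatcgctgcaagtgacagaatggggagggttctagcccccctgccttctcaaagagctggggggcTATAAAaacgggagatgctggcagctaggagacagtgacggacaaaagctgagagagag
Nppb: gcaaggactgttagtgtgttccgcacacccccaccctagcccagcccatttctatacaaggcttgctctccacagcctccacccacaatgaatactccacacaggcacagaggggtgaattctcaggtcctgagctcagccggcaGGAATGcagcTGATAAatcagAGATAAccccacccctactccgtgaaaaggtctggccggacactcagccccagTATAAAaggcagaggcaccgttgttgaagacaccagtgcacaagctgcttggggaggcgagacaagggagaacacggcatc
Ankrd1: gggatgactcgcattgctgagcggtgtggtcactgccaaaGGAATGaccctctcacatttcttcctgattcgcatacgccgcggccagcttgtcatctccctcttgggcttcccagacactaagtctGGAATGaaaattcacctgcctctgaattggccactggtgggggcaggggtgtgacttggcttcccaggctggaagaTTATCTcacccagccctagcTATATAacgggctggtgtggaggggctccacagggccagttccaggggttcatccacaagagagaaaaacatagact
Acta1: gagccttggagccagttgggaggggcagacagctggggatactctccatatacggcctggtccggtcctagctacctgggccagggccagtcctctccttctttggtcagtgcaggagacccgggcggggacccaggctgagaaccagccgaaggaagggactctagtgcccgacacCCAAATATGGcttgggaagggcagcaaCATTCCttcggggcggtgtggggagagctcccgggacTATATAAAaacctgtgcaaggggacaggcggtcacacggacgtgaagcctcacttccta
The Nppa window lies at chr4:148000472-148000771 on the plus strand and the Nppb window at chr4:147985650-147985949 on the plus strand. Those of Ankrd1 and Acta1 are chr19:36119795-36120094 and chr8:123894726-123895025, both on the minus strand. The Nppb window held 2 GATA matches, starting 95 and 84 bases before the start, and an MCAT match 105 bases before it. The Nppa window held a single GATA match 122 bases before the start and an NKX2-5 match 241 bases before it. Ankrd1 had 2 MCAT matches, 210 and 123 bases upstream, and a GATA match 47 bases upstream. Acta1 had the CArG box, 73 bases upstream, and an MCAT match 46 bases upstream. No match overlapped one of another motif. Of the 6 members with a window (the window with the outermost start for Csrp3, which has more than 1) 4 held GATA, 3 MCAT, 2 NKX2-5, 5 a TATA box, and 1 each AP-1, CArG and MEF2. Of all 32851 windows in the table, 29.8% held GATA, 14.7% MCAT, 11.5% NKX2-5, 12.5% a TATA box, 7.81% AP-1, 1.63% CArG and 3.19% MEF2. A match is a description of letters and not a bound site.

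Levels are the FPKM that the authors deposited (fragments scaled to gene length and to library size). Reads assigned to genes, worked out from the FPKM, summed to 15658893 to 20339926 per library. A log2 difference is the cKO mean minus the FF mean of log2(FPKM + 1). Tests were run with limma over the 12678 genes whose mean FPKM reached 1, and an adjusted p under 0.05 passes. The library of FF replicate 3 was unlike the rest. Over these 12678 genes its Pearson correlations of log2(FPKM + 1) ran from 0.880 to 0.909, while pairs of other libraries gave 0.954 to 0.984. Its summed thymocyte markers reached 332 FPKM, against 1.30 to 2.27 FPKM in cKO libraries and 1.65 and 2.19 FPKM in the other FF libraries. The results for the 7 genes, and those of other genes that it changes, are therefore also given without it. Kdm5b averaged 2.86 ± 0.149 FPKM in cKO and 3.45 ± 0.406 FPKM in FF hearts (SD, n = 3 each, limma adjusted p = 0.447), a value over the whole gene and all cells of the heart that checks the labels only roughly. In heart samples of mixed cells, fewer cells of a type and less RNA per cell cannot be told apart.

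Nppb, the B-type peptide gene, was 3.47 times as abundant in cKO hearts by the ratio of group means. It stood at 464, 520.4 and 347 FPKM in cKO replicates 1 to 3, against 168, 114 and 101 FPKM in FF replicates 1 to 3. Each cKO library lay above each FF library, and FF replicate 3, the library that stood apart, was the lowest. The group means were 444 ± 88.3 FPKM in cKO and 128 ± 35.4 FPKM in FF (SD, n = 3 each). The log2 difference was 1.801 (SE 0.24, 95% interval 1.23 to 2.37), with a limma adjusted p = 0.0577, just short of the threshold. Without FF replicate 3 it was 1.65 (interval 1.098 to 2.21) and passed, with a limma adjusted p = 0.0175.

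Nppa, the atrial peptide gene, had the widest spread between libraries. Its mean was the highest of the members in cKO, and in FF as well through FF replicate 3, without which its FF mean was 132 FPKM. It stood at 741, 287 and 794 FPKM in cKO replicates 1 to 3, against 81.8, 183 and 492 FPKM in FF replicates 1 to 3. The groups overlapped, with FF replicate 3 above cKO replicate 2. The means were 608 ± 278 FPKM in cKO and 252 ± 213 FPKM in FF (SD, n = 3 each), and the log2 difference of 1.501 (SE 0.69, 95% interval -0.14 to 3.15) had a limma adjusted p = 0.319. Once FF replicate 3 was left out, the groups separated and the difference was 2.17 (interval 0.91 to 3.42), with a limma adjusted p = 0.0473. Without FF replicate 1, which had the lowest value, it was 0.88 (adjusted p = 0.4799). The ratio of Nppb to Nppa was 0.625, 1.81 and 0.437 in cKO replicates 1 to 3 and 2.05, 0.625 and 0.206 in FF replicates 1 to 3, so neither group had a constant balance of the peptides.

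**Figure D1:**
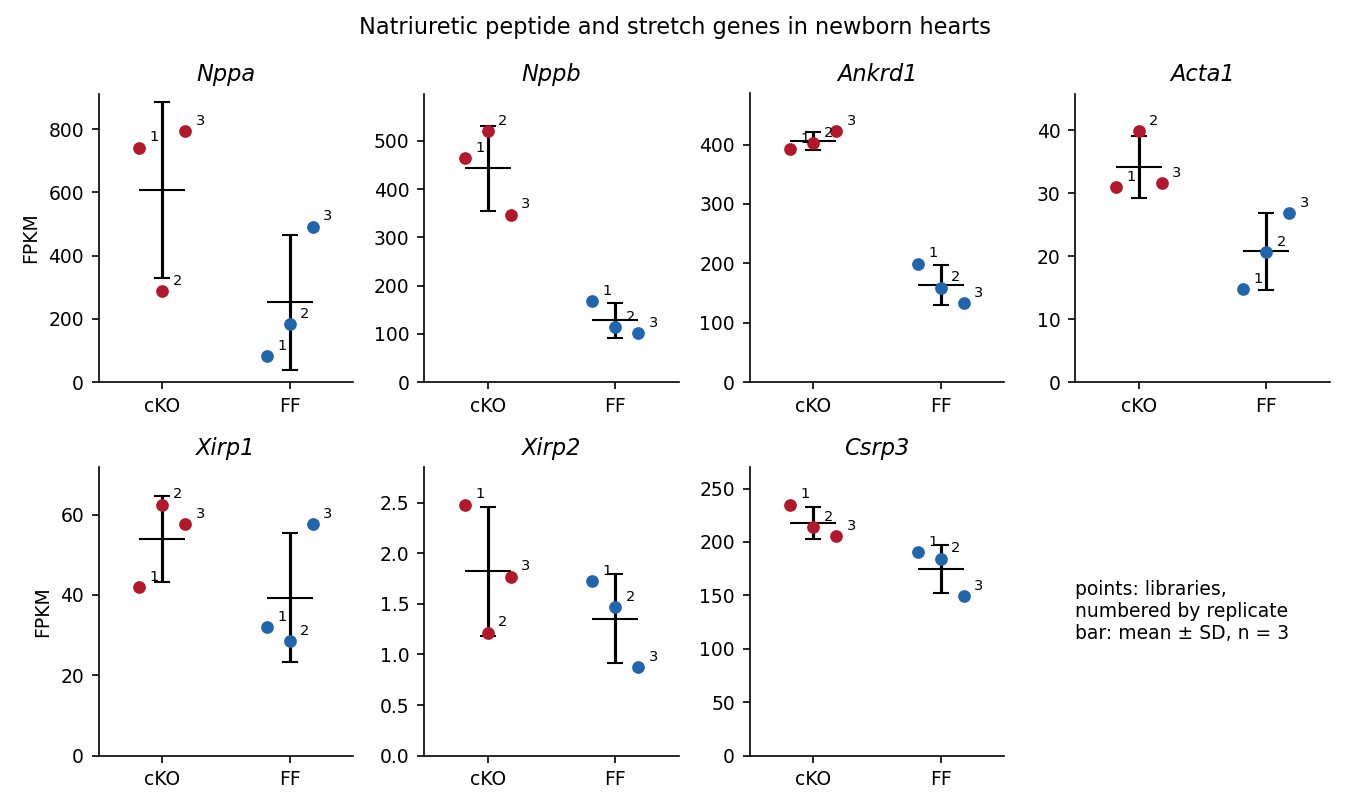
FPKM of each of the 7 genes in every library (points, numbered by replicate), with the group mean and SD (bars, n = 3), cKO left and FF right. Nppb, Ankrd1, Acta1 and Csrp3 show cKO points above all FF points, while Nppa, Xirp1 and Xirp2 overlap.

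Within each group the level of Nppa followed the order of atrial muscle genes, and that of Nppb did not. The summed FPKM of Myl7 and Myl4, the atrial myosin light chain genes, and Sln, the gene of the atrial calcium pump inhibitor sarcolipin, was 432, 262 and 731 in cKO replicates 1 to 3 and 55.7, 416 and 1243 in FF replicates 1 to 3. In both groups the libraries ranked in the same order for this sum and for Nppa, and in the opposite order for Nppb. At like atrial sums, 432 in cKO replicate 1 and 416 in FF replicate 2, Nppa was at 741 and 183 FPKM and Nppb at 464 and 114 FPKM. These are single libraries, and cKO replicate 1 had the highest ratio of Nppa to this sum of any library. Nppa over the atrial sum was 1.72, 1.10 and 1.09 in cKO libraries and 1.47, 0.439 and 0.395 in FF libraries. These ratios overlapped between the groups, with a log2 difference of 1.00 and a two-sided exact permutation p = 0.3, where 3 against 3 allows 0.1 at the smallest. Leaving out FF replicate 3 gave 0.66 and an exact p = 0.6, where 0.2 is then the smallest possible. All 12 atrial markers listed were tested, and summed to 464 to 1009 FPKM in cKO and 159 to 1621 FPKM in FF, with 0 of them at 0 in every library. How much of each heart's atria entered a sample is not stated. Beyond the ratio to the atrial sum, the part of atrial content in the Nppa result was not tested.

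**Figure D2:**
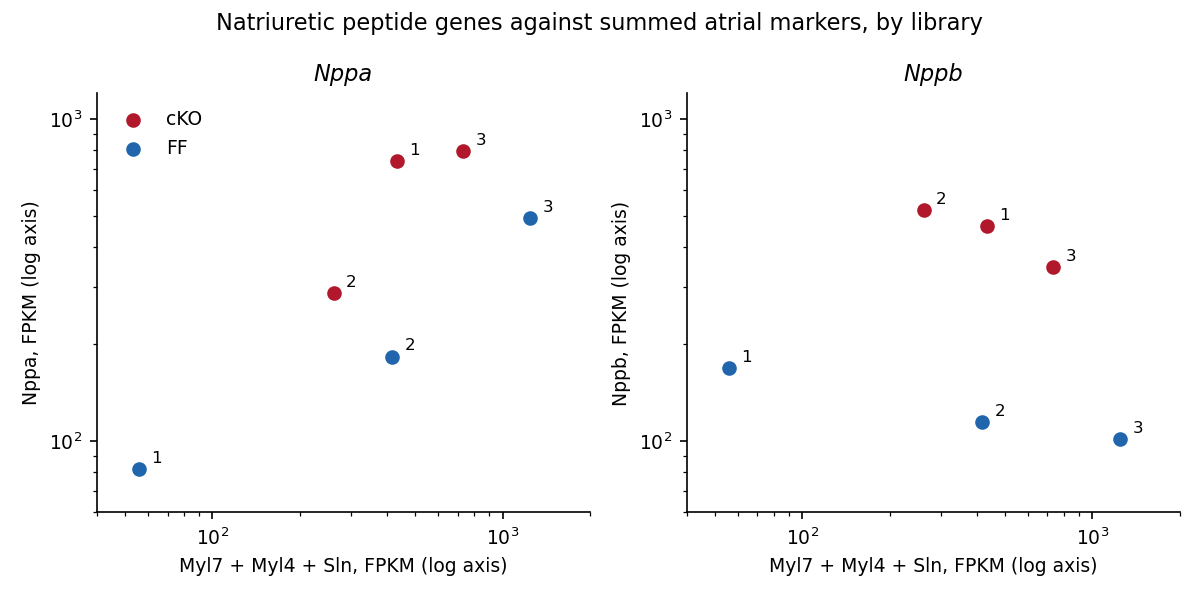
Nppa (left) and Nppb (right) in FPKM against the summed FPKM of Myl7, Myl4 and Sln in each library (points, numbered by replicate), on log axes. Nppa runs upward with the atrial sum in each group, from 81.8 to 492 FPKM in FF, while all 3 cKO libraries lie above all FF libraries for Nppb.

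Of the 12 atrial markers 0 passed with 6 libraries (1 at an unadjusted p under 0.05, higher), their median log2 difference was 0.26, and 10 were positive. Without FF replicate 3 the median was 0.96 and 2 passed higher, Pam, the gene of an enzyme that amidates peptides, and Tbx5, a T-box factor. In that fit 5.73% of all genes passed higher. The markers with the smallest p were Nr2f2, an atrial orphan receptor gene, with 4.57 ± 0.2504 FPKM in cKO and 3.04 ± 0.539 FPKM in FF, and Pam, with 137 ± 25.5 FPKM in cKO and 91.3 ± 42.99 FPKM in FF (SD, n = 3 each). Ventricular markers had a median of -0.13 over 8 genes, with 0 past the threshold (2 higher and 1 lower at an unadjusted p under 0.05). Among them Hey2, a transcriptional repressor of the ventricle, stood at 24.4 ± 2.51 FPKM in cKO and 11.1 ± 3.06 FPKM in FF and Myl2, the ventricular light chain gene, at 2494 ± 233 FPKM in cKO and 3719.8 ± 483 FPKM in FF. In the fit without FF replicate 3 the median was -0.21 and 2 passed higher, Hey2 and the gap junction gene Gja1 (limma adjusted p = 0.0168 and 0.0321). The 8 markers summed to 4171 to 5017 FPKM in cKO and 5342 to 7258 FPKM in FF. The 4 tested of 8 conduction system markers had a median of -0.13 and 0 passed (0 at an unadjusted p under 0.05), with the pacemaker channel gene Hcn4 at 1.79 ± 0.629 FPKM in cKO and 3.91 ± 2.66 FPKM in FF and Irx3 at 10.5 ± 0.7495 FPKM in cKO and 12.03 ± 2.81 FPKM in FF. In the fit without FF replicate 3 the calcium channel subunit gene Cacna2d2 passed higher (log2 difference 0.84, limma adjusted p = 0.0404), and the conduction list's median was -0.22.

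Ankrd1, the titin-bound ankyrin repeat gene, had values in cKO hearts that lay close together. The gene (ENSMUSG00000024803) lies on the minus strand of chromosome 19, at 36089361 to 36097499 in the deposited coordinates, whose build is not stated beside the table. It stood at 392, 403 and 423 FPKM in cKO replicates 1 to 3, against 199.6, 159 and 133 FPKM in FF replicates 1 to 3, with no overlap. The means were 406 ± 15.4 FPKM in cKO and 164 ± 33.4 FPKM in FF (SD, n = 3 each), a ratio of 2.48. The log2 difference was 1.32 (SE 0.17, 95% interval 0.92 to 1.72, limma adjusted p = 0.0562), and 1.18 (interval 0.87 to 1.497, adjusted p = 0.0152) without FF replicate 3. An antisense transcript, ENSMUSG00000120701, lies inside Ankrd1 on the other strand (chromosome 19, 36092614 to 36096252 in the deposited table). It was at 11.1, 14.3 and 10.8 FPKM in cKO libraries and 5.16, 5.70 and 2.76 FPKM in FF libraries, with a log2 difference of 1.27 (limma adjusted p = 0.0749), and 1.02 without FF replicate 3 (adjusted p = 0.0172). No source used here states whether counting used strand, so reads of this pair cannot be told apart. Its 88 to 471 reads per library stood against 7339 to 26474 reads of Ankrd1. Among relatives, Ankrd23 was at 1.51 ± 0.245 FPKM in cKO and 1.17 ± 0.0385 FPKM in FF, and Ankrd2, the skeletal muscle form, was under the filter.

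Acta1 was higher in every cKO library, but its share of sarcomeric actin stayed small. It (ENSMUSG00000031972) lies on the minus strand of chromosome 8, at 124618508 to 124621490. It stood at 31.02, 39.9 and 31.6 FPKM in cKO replicates 1 to 3, against 14.7, 20.7 and 26.9 FPKM in FF replicates 1 to 3. The groups did not overlap, and FF replicate 3 came nearest to the cKO values. The log2 difference was 0.72 (SE 0.23, 95% interval 0.18 to 1.27, limma adjusted p = 0.184), and 0.92 (interval 0.503 to 1.34, adjusted p = 0.0295) without FF replicate 3. Actc1, the cardiac form, averaged 7296 ± 900.5 FPKM in cKO and 5894 ± 1193 FPKM in FF (SD, n = 3 each, limma adjusted p = 0.436). Acta1 made up 0.493%, 0.5001% and 0.409% of the summed FPKM of both genes in cKO replicates 1 to 3, and 0.256%, 0.430% and 0.374% in FF replicates 1 to 3. These shares overlapped, with a log2 difference of 0.43 and a two-sided exact permutation p = 0.2, and without FF replicate 3 of 0.49 and p = 0.4. The actins are near-identical in their coding parts and reads could be split between them, so the share is uncertain.

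Acta1 is the main actin of skeletal muscle, and markers of that tissue were close to 0. Of 14 listed, 3 (Myh2, Myh4 and the muscle determination gene Myod1) were listed at 0 in all 6 libraries and the highest value of any was 1.81 FPKM. The list summed to 2.99 to 3.31 FPKM in cKO and 2.47 to 6.85 FPKM in FF. The 1 marker past the filter, the fast troponin gene Tnni2, stood at 0.775 ± 0.101 FPKM in cKO and 1.44 ± 0.379 FPKM in FF (SD, n = 3 each, limma adjusted p = 0.246), lower at an unadjusted p under 0.05. Of 6 smooth muscle markers 5 were tested and 0 passed (0 at an unadjusted p under 0.05), with a median of -0.09 and 2 positive. Smtn was at 27.3 ± 1.08 FPKM in cKO and 32.4 ± 2.34 FPKM in FF, and the smooth muscle actin gene Acta2 at 402 ± 50.97 FPKM in cKO and 314 ± 84.5 FPKM in FF. Once FF replicate 3 was left out, 2 smooth muscle markers passed higher, Acta2 and the calponin gene Cnn1 (limma adjusted p = 0.0453 and 0.0443). The share of all genes that passed higher was then 5.73%. The list's median was -0.05, as Smtn, Myh11 and Mylk lay on the other side (log2 differences -0.24, -0.23 and -0.05). The cytoplasmic actins Actb and Actg1 lay on the other side, with log2 differences of -0.76 and -0.64 (limma adjusted p = 0.209 and 0.167). Of the 5 actins beside Acta1, 0 passed (2 lower at an unadjusted p under 0.05), with a median of -0.28, and Acta2 alone passed without FF replicate 3, higher.

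Xirp1, the Xin gene, had a value in FF replicate 3 within the range of the cKO hearts. It (ENSMUSG00000079243) lies on the minus strand of chromosome 9, at 119842821 to 119852664. It stood at 41.9, 62.5 and 57.6 FPKM in cKO replicates 1 to 3, against 31.9, 28.4 and 57.7 FPKM in FF replicates 1 to 3. Only cKO replicate 2 exceeded all FF libraries. The log2 difference was 0.496 (SE 0.29, 95% interval -0.200 to 1.19, limma adjusted p = 0.432). Without FF replicate 3 the groups separated, and it was 0.801 (interval 0.38 to 1.22, adjusted p = 0.0387). Without FF replicate 2 it was 0.303 (adjusted p = 0.643). Xirp1 lies inside the span of Cx3cr1 on the same strand, which had 118 to 279 reads per library against 2834 to 7786 for Xirp1.

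Xirp2 (ENSMUSG00000027022, chromosome 2, plus strand, 67004178 to 67356959), its relative, was barely above the filter and showed no separation. It stood at 2.48, 1.21 and 1.77 FPKM in cKO replicates 1 to 3, against 1.72, 1.47 and 0.872 FPKM in FF replicates 1 to 3, which rests on 240 to 704 reads. The log2 difference was 0.25 (SE 0.23, 95% interval -0.29 to 0.800, limma adjusted p = 0.608), and 0.098 (interval -0.38 to 0.58) without FF replicate 3. The FPKM of Xirp1 was 16.9, 51.4 and 32.6 times that of Xirp2 in cKO libraries and 18.5, 19.4 and 66.1 times in FF libraries. The cKO ratios varied among themselves, while in FF replicates 1 and 2 were alike and replicate 3, the library that stood apart, was the highest.

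Csrp3 (ENSMUSG00000030470, chromosome 7, minus strand, 48480146 to 48497781), the muscle LIM protein gene, had a small difference with little spread. It stood at 235, 214 and 206 FPKM in cKO replicates 1 to 3, against 191, 184 and 149 FPKM in FF replicates 1 to 3. The groups did not overlap, and the lowest cKO value was close to the highest FF value. The log2 difference was 0.32 (SE 0.14, 95% interval -0.01 to 0.66, limma adjusted p = 0.297), and 0.21 (interval -0.03 to 0.46, adjusted p = 0.198) without FF replicate 3. Its relatives Csrp1 and Csrp2 had log2 differences of -0.08 and -0.24 (limma adjusted p = 0.888 and 0.383). Leaving out FF replicate 3, where Csrp1 stood at 247 FPKM, gave 0.19 for Csrp1 and -0.21 for Csrp2 (adjusted p = 0.318 and 0.231), so the direction of Csrp1 turned.

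The order of abundance differed between the groups. In cKO hearts the mean FPKM ran from Nppa (608) through Nppb (444), Ankrd1 (406), Csrp3 (218), Xirp1 (54.0) and Acta1 (34.2) to Xirp2 (1.82). In FF hearts it ran from Nppa (252) through Csrp3 (175), Ankrd1 (164), Nppb (128), Xirp1 (39.4) and Acta1 (20.8) to Xirp2 (1.35). Nppa, Nppb and Ankrd1 in cKO, and Csrp3, Ankrd1 and Nppb in FF, overlapped over libraries and are not ordered beyond their spread. In FF Nppa overlapped these 3 as well. Without FF replicate 3 the FF means ran from Csrp3 (188) through Ankrd1 (179) and Nppb (141) to Nppa (132), so Nppa was then the fourth.

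With 6 libraries 0 of the 7 genes passed in limma, where 0.0710% of all genes passed as higher and 0.0947% as lower. An unadjusted p under 0.05 was met by 3 of 7 (Nppb, Ankrd1 and Acta1), all higher, where 8.39% of all genes were higher and 9.55% lower. The groups did not overlap for 4 of 7, all higher in cKO, against 13.5% of all genes higher and 28.0% in either direction. All 7 differences were positive, with a median of 0.72 against 0.01 over all genes tested, of which 50.7% were positive. Without FF replicate 3, 5 of 7 rose in cKO hearts, where 5.73% of all genes rose and 6.26% fell, and 6 of 7 did not overlap, all higher, against 25.0% of all genes higher and 27.0% lower. The 5 were Nppa, Nppb, Ankrd1, Acta1 and Xirp1. The 7 genes were chosen with earlier results of these data known, so these counts describe them and are no independent test of the set. Leaving out any other library left 0 of 7 past the threshold, and adjusted p-values between 0.1197 and 0.258 for Nppb and between 0.1197 and 0.277 for Ankrd1. Their log2 differences then stayed between 1.68 and 2.01 and between 1.29 and 1.47. Over all genes 9 passed higher and 12 lower with 6 libraries, and 9 and 6 with median-ratio scaling.

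**Figure D3:**
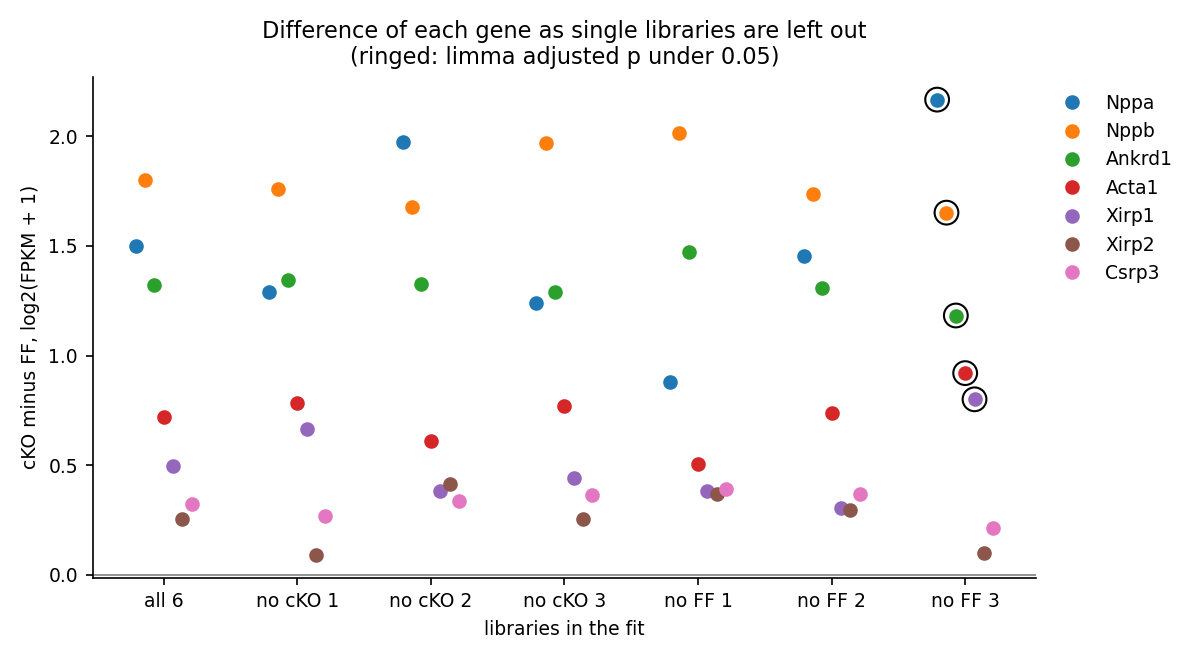
Log2 difference (cKO minus FF, log2(FPKM + 1)) of each gene with all 6 libraries and with each library left out in turn, ringed where the limma adjusted p is under 0.05. Rings stand only where FF replicate 3 is left out, and Nppa moves most, between 0.88 and 2.17.

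Set against heart muscle genes of the same library, Nppb and Ankrd1 kept their separation. The reference was the geometric mean FPKM of Tnnt2, Actc1, Ttn, Ryr2, Actn2, Mybpc3, Tnni3 and Myl3, all genes of the sarcomere or its calcium release, and it ran from 475 to 548 in cKO and from 396 to 489 in FF libraries. Nppb was at 0.912, 0.950 and 0.731 times this level in cKO replicates 1 to 3 and at 0.344, 0.254 and 0.256 times in FF replicates 1 to 3. Ankrd1 was at 0.771, 0.735 and 0.890 times in cKO and at 0.408, 0.354 and 0.337 times in FF libraries. Both gave a two-sided exact permutation p = 0.1, the smallest that 3 against 3 allows, and 0.36 after Benjamini-Hochberg adjustment over the 9 ratios tested. Without FF replicate 3 their log2 differences were 1.54 and 1.07, against 1.61 and 1.12 with it. Both then gave an exact p = 0.2, the smallest possible once a library is left out. Relative to this level the groups overlapped for Nppa, Acta1, Xirp1, Xirp2 and Csrp3 (exact permutation p between 0.2 and 0.5). Of the 8 reference genes themselves 0 passed (3 higher at an unadjusted p under 0.05), with a median of 0.37 and 6 positive. Tnni3 and Myl3 were lower, at 607 ± 117 and 1321 ± 191 FPKM in cKO and 785 ± 73.0 and 1734 ± 302 FPKM in FF, so the reference genes differed in direction. Actn2 stood at 629 ± 75.3 FPKM in cKO and 451 ± 61.9 FPKM in FF, and Mybpc3 at 839 ± 36.6 FPKM in cKO and 631 ± 76.4 FPKM in FF (SD, n = 3 each).

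**Figure D4:**
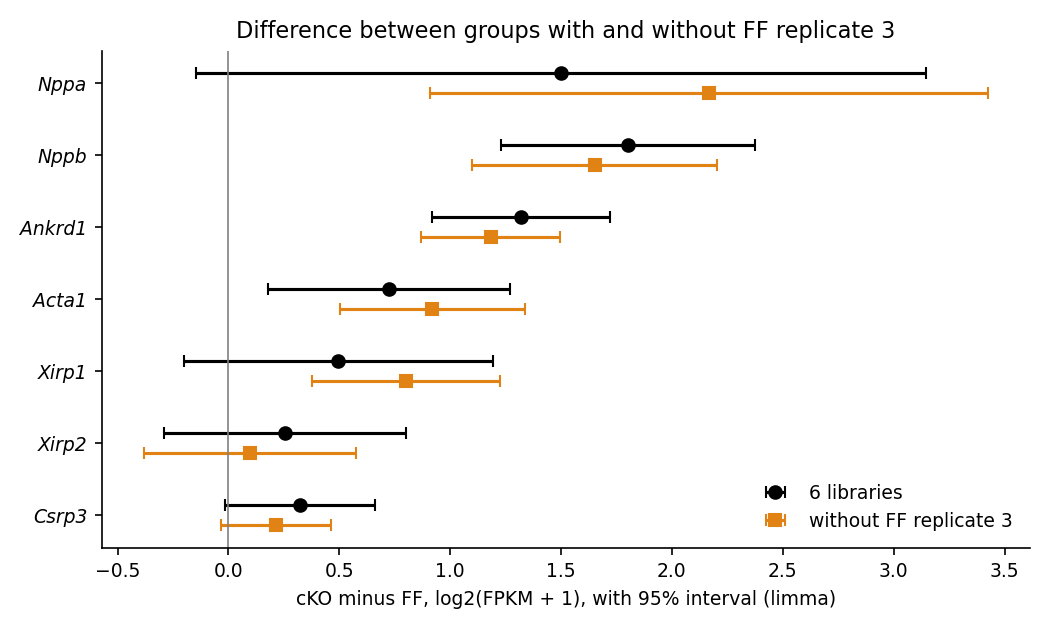
Log2 difference (cKO minus FF, log2(FPKM + 1)) of each gene with its 95% limma interval, with 6 libraries (circles) and without FF replicate 3 (squares). All estimates are positive; the intervals of Nppb, Ankrd1 and Acta1 lie above 0 in both fits.

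The genes that process, receive and clear natriuretic peptides were led by Corin, the protease of heart muscle that cuts pro-ANP. Corin stood at 31.4, 32.4 and 29.7 FPKM in cKO replicates 1 to 3, against 20.9, 16.5 and 19.5 FPKM in FF replicates 1 to 3, with no overlap. Its log2 difference was 0.695 (SE 0.13, limma adjusted p = 0.0745), and 0.72 without FF replicate 3 (adjusted p = 0.0216). Npr3, the clearance receptor, was at 10.8, 7.39 and 12.98 FPKM in cKO and 6.49, 6.62 and 4.24 FPKM in FF libraries (log2 difference 0.74, limma adjusted p = 0.189, and 0.56 with 0.119 without FF replicate 3). Pcsk6, a listed gene given after its values were seen, lay on the other side. It was at 4.44, 6.17 and 4.80 FPKM in cKO and 6.20, 6.70 and 11.1 FPKM in FF libraries, lower with no overlap. Its log2 difference was -0.52 (limma adjusted p = 0.296), and -0.29 without FF replicate 3 (adjusted p = 0.199). The following 3 genes are also given after their values were seen. The cyclase receptor genes Npr1 and Npr2 were at 9.54 ± 0.807 and 10.1 ± 1.304 FPKM in cKO and at 9.32 ± 2.202 and 9.98 ± 1.69 FPKM in FF (SD, limma adjusted p = 0.912 and 0.967). Their 95% intervals, -0.37 to 0.47 and -0.37 to 0.41 on the log2 scale, leave room for differences in either direction. Furin, the protease that cuts pro-BNP, was at 14.3, 20.3 and 17.9 FPKM in cKO and 10.6, 10.8 and 25.2 FPKM in FF libraries, and rose without FF replicate 3 (log2 difference 0.65, limma adjusted p = 0.0407, against 0.26 and 0.728 with it). Of the 9 tested of 12 listed, 0 passed with 6 libraries (2 higher at an unadjusted p under 0.05) and 2 rose without FF replicate 3, with medians of 0.05 and 0.21. Without that library 5.73% of all genes rose.

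Nppa and Nppb lie close together on chromosome 4, Nppb (ENSMUSG00000029019) at 148070245 to 148071662 and Nppa (ENSMUSG00000041616) at 148085179 to 148086536, both on the plus strand in the deposited coordinates. Of the 11 neighbouring genes listed, 8 were tested and 0 passed (1 higher and 0 lower at an unadjusted p under 0.05), with a median log2 difference of 0.15. Miip was at 10.01, 10.4 and 8.72 FPKM in cKO and 5.62, 6.096 and 6.62 FPKM in FF libraries, with no overlap. Its log2 difference was 0.59 (limma adjusted p = 0.0888), and 0.64 without FF replicate 3 (adjusted p = 0.02201), where it was the 1 gene of the list past the threshold. Fbxo44, of an F-box protein, had 7.41 ± 0.306 FPKM in cKO and 5.79 ± 1.29 FPKM in FF (SD, n = 3 each, limma adjusted p = 0.359). Clcn6, another listed neighbour, stood at 4.92 ± 0.498 FPKM in cKO and 4.14 ± 1.02 FPKM in FF (SD, n = 3 each, limma adjusted p = 0.551), a value chosen after it was seen. An antisense gene over Nppa, Gm13054, had 2 to 39 reads per library.

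**Figure D5:**
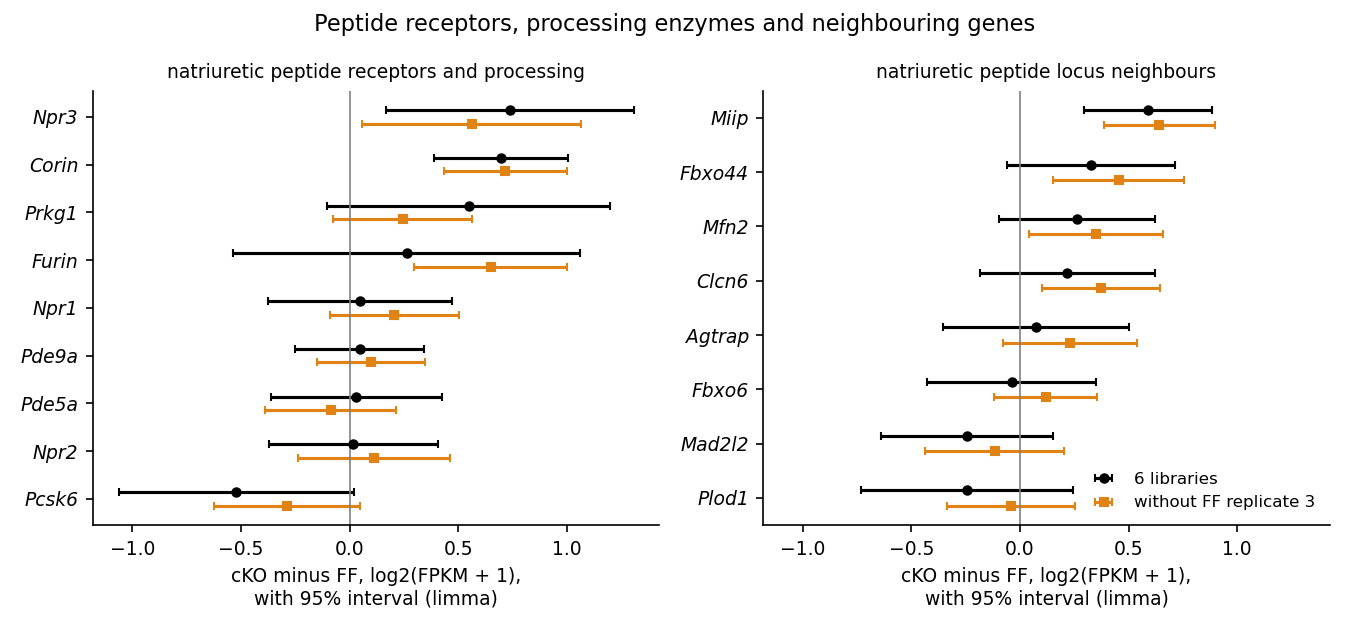
Log2 difference (cKO minus FF, log2(FPKM + 1)) with 95% limma intervals for tested genes of peptide processing and reception (left) and neighbours of the peptide genes (right), with 6 libraries (circles) and without FF replicate 3 (squares). Corin, Npr3 and Miip have intervals above 0 in both fits, and Npr1 and Npr2 lie near 0.

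No gene listed as a partner of these proteins passed the threshold with 6 libraries. Among 8 genes of Xin partners at the intercalated disc 0 passed (3 higher at an unadjusted p under 0.05), with a median of 0.36. Nrap, an actin anchor of the disc, stood at 79.1 ± 9.11 FPKM in cKO and 47.9 ± 4.93 FPKM in FF (limma adjusted p = 0.0831) and the filamin gene Flnc at 48.3 ± 8.26 FPKM in cKO and 31.8 ± 4.49 FPKM in FF (adjusted p = 0.1699), and these 2 passed without FF replicate 3. Of the ankyrin and LIM relatives 7 of 8 were tested and 0 passed (2 higher at an unadjusted p under 0.05), with a median of 0.21, led by Ldb3 of the Z-disc, at 176 ± 14.7 FPKM in cKO and 129 ± 5.08 FPKM in FF, and by Pdlim5, at 66.6 ± 2.52 FPKM in cKO and 40.05 ± 14.9 FPKM in FF (SD, n = 3 each). Of 9 tested Z-disc and titin genes 0 passed (2 higher at an unadjusted p under 0.05), with a median of 0.12. They were led by Actn2, given above, and Synpo2l, at 137 ± 9.78 FPKM in cKO and 91.97 ± 24.1 FPKM in FF. In the fit without FF replicate 3, Pdlim5 and Synpo2l were the 1 gene past the threshold in each of these lists, both higher. That fit placed 5.73% of all genes past the threshold as higher.

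Among other genes that respond to load, Myh7 alone passed with 6 libraries. Of 13 tested stretch and hypertrophy genes 1 passed (2 higher and 1 lower at an unadjusted p under 0.05), and the list's median was 0.10. The gene that passed was the slow myosin gene Myh7, with a log2 difference of 2.76 (673 ± 84.2 FPKM in cKO and 99.3 ± 21.4 FPKM in FF, SD, n = 3 each, limma adjusted p = 0.0168). The lower gene was Timp1, at 7.49 ± 0.614 FPKM in cKO and 11.1 ± 1.84 FPKM in FF (limma adjusted p = 0.170). In the fit without FF replicate 3 Rcan1, a calcineurin target, and Fstl3 passed beside Myh7, both higher. Of 11 tested SRF and MRTF genes 0 passed (1 lower at an unadjusted p under 0.05), with a median of 0.05. The early gene Fos was at 1.35 ± 0.103 FPKM in cKO and 4.205 ± 1.98 FPKM in FF and the tropomyosin gene Tpm2 at 34.4 ± 4.401 FPKM in cKO and 24.2 ± 7.62 FPKM in FF. Of 16 factors known to act at natriuretic peptide promoters 0 passed (1 higher at an unadjusted p under 0.05), with a median of 0.17. Nr2f2, given above, and Gata6, at 33.9 ± 5.17 FPKM in cKO and 27.6 ± 1.35 FPKM in FF, had the smallest p, and Gata4, chosen after its values were seen, was at 48.96, 59.5 and 59.9 FPKM in cKO and 51.8, 43.7 and 87.3 FPKM in FF libraries. Leaving out FF replicate 3, 4 of the 11 SRF and MRTF genes passed (Tpm2, Cnn1, Egr1 and Myl9), all higher, with a median of 0.20. So did 2 of the 16 promoter factors (Mef2d and Tbx5), with a median of 0.24. Of all genes 5.73% passed higher in that fit.

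No marker of thymocytes, fibroblasts or endothelium passed the threshold with 6 libraries. Of 10 tested thymocyte markers 0 passed (0 at an unadjusted p under 0.05), with a median of -1.45 that was 0.01 without FF replicate 3. Trbc2 stood at 0.146, 0.146 and 0 FPKM in cKO and at 1.02, 0.0904 and 109 FPKM in FF libraries, and Cd4 reached 7.55 FPKM in FF replicate 3. Of 8 fibroblast markers 0 passed (1 higher and 3 lower at an unadjusted p under 0.05), with a median of -0.23, led by the matrix gene Dcn at 42.4 ± 4.78 FPKM in cKO and 71.9 ± 8.62 FPKM in FF and by Tcf21 at 10.3 ± 1.09 FPKM in cKO and 6.91 ± 0.874 FPKM in FF. Of 8 endothelial markers 0 passed (1 lower at an unadjusted p under 0.05), with a median of -0.21, led by the tight junction gene Cldn5 at 24.6 ± 2.47 FPKM in cKO and 52.6 ± 9.05 FPKM in FF and by the angiopoietin receptor gene Tek at 27.2 ± 0.808 FPKM in cKO and 30.8 ± 1.84 FPKM in FF (SD, n = 3 each). In the fit without FF replicate 3, 1 fibroblast marker was higher (Tcf21) and 1 lower (Dcn), and 1 endothelial marker, Cldn5, was lower. The part of other cells in the results above was not tested.

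The genes whose profile over the 6 libraries was most like each member were found among 3907 genes whose mean FPKM reached 10, by Pearson's r of log2(FPKM + 1). With 6 libraries in 2 groups high values are common, and they are given as a description. For Nppb they were Ptgds, Arhgef6 and the desmosome gene Pkp2 (r = 0.991, 0.990 and 0.985), and for Ankrd1 Svil, the muscarinic receptor gene Chrm2 and the homeobox gene Prox1 (r = 0.993, 0.992 and 0.990). Nppa was most like Tpm2, Kmt5c and the light chain gene Myl1 (r = 0.960, 0.958 and 0.955). Acta1 was most like Tns2, Atg13 and Rit1 (r = 0.991, 0.989 and 0.988), Xirp1 like Ppme1, Cand2 and Patl1 (r = 0.993, 0.989 and 0.988), Xirp2 like Mrpl24, Mir133a-1 and Jpt1 (r = 0.972, 0.969 and 0.957) and Csrp3 like Tecrl, Clca3a1 and AW549877 (r = 0.995, 0.992 and 0.991). Among the members themselves Nppb and Ankrd1 were closest (r = 0.974), and Nppa was closer to Acta1 (r = 0.761) than to Nppb (r = 0.423).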

How the data were processed

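RNA of newborn mouse hearts, 6 samples, was isolated with a miRNeasy micro kit and made into Ovation Ultralow V2 libraries (labels' protocols). FPKM per gene is the unit the authors deposited, as the file's values and columns show. In the submitters' processing notes stand TopHat2 2.0.13, FastQC, featureCounts, Subread and edgeR, with the builds GRCm39, mm10 and GRCh38 and no roles. No source used here gives the annotation or the strand setting. FPKM times gene length was a whole multiple of 1 step per library (100% of values under 200 reads lay within 0.1 of a whole number), which gave the reads per gene. The library size behind the FPKM was not the plain sum of these reads. It was from 0.960 (FF replicate 1) to 1.07 (cKO replicate 3) times that sum. Promoters are RefSeq's, on GRCm38.p6, and coordinates of genes are those of the deposited table.

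Groups followed the sample titles. Limma 3.58.1 in R 4.3.3 was fitted to log2(FPKM + 1) of 12678 genes whose mean FPKM reached 1. The model held group alone, with a mean-variance trend and Benjamini-Hochberg adjustment at 0.05. It was tested on simulated data in which no library stood apart as FF replicate 3 does. The log2 scale with 1 added understates differences of low genes such as Xirp2. Ratios within a library were tested by two-sided exact permutation in scipy 1.17.1, and ratios between members were not tested. Of each list, members past the threshold were named, up to 3, or else the 2 with the smallest p, and the 3 genes most like each member by Pearson's r. A further gene near Nppa and Nppb is not reported here. The members and lists were chosen with earlier results of these data known. Alternatives were other pseudocounts (0.1 and 0.5), filters (none, or a mean FPKM of at least 5), scalings, a replicate block, robust variance, library weights and leaving out each library.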

Additional observations from a re-analysis of the deposited data

How the results depend on the processing

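All 7 genes kept a positive log2 difference under all alternatives run for them. Xirp2 was not tested where the mean FPKM had to be at least 5. Of the 7, 0 passed with 6 libraries. Nppb and Ankrd1, 2 genes, passed with the higher filter (adjusted p = 0.0384 and 0.0380 in limma), with quantile normalization (0.0390 and 0.0384) and with rescaling outside mitochondrial and haemoglobin genes (0.0477 for both). With library weights 5 passed (all but Xirp2 and Csrp3). Leaving out single libraries gave 0 to 5, and 5 only without FF replicate 3.

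Over all genes the counts of 9 higher and 12 lower in cKO became 23 and 30 with the higher filter, 31 and 28 with quantile normalization, 15 and 19 with the rescaling, 2143 and 2157 with library weights, and 0 and 0 without a filter. Lower genes numbered 5 and 6 with pseudocounts of 0.1 and 0.5, and 6 with median-ratio scaling and with robust variance. Leaving out single libraries gave 0 to 726 higher and 0 to 794 lower. The cause of these shifts was not tested.

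With the replicate number as a block 1 gene was higher and 1 lower, and 0 of the 7 passed (Nppb adjusted p = 0.137, Ankrd1 0.149). The deviations of same-numbered samples had correlations of 0.38, -0.24 and 0.24 for numbers 1 to 3. Pairs with different numbers gave -0.42 to 0.35. These values cannot show whether same-numbered samples share more than a number, and the labels do not say.

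Of the 9 ratios, Xirp2 over the heart muscle genes ranged from -0.0324 to 0.536 with single libraries left out and turned to -0.0324 without cKO replicate 1, and the others kept a positive difference under each alternative. With 3 libraries a group an exact permutation test cannot fall below 0.1, and with a library left out it cannot fall below 0.2. Xirp2 rests on 240 to 704 reads per library.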
